A study of Mus musculus with 8 samples.

Results

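The genes of glycolysis and central carbon metabolism were followed as a list of 41 named genes among the 39179 genes of the count files. The list was given by gene symbol, and all 41 genes were found by their Ensembl identifiers and passed the filter on low counts, among 11475 genes tested. It holds 4 genes of glucose uptake and phosphorylation, 8 of upper glycolysis, 6 of lower glycolysis, 4 of lactate formation and transport, 3 of the pyruvate dehydrogenase step, 4 of the pentose phosphate pathway, 10 of the tricarboxylic acid cycle, and the hypoxia factor Hif1a with its target Bnip3.

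RNA was sequenced from antigen-specific mouse CD4 T cells in 4 groups of 2 libraries each: Tfh cells with a Bach2 vector, Tfh cells with an empty vector, non-Tfh cells with the Bach2 vector, and non-Tfh cells with the empty vector. Tfh cells are the helper cells of the B cell follicle, sorted as CXCR5+ PD-1+, and the non-Tfh cells lacked both surface proteins. Every group consisted of Smarta T cells, whose transgenic receptor recognises a viral peptide, that also carried CreERT2 (a Cre recombinase switched on by tamoxifen) and were retrovirally transduced and transferred into C57BL/6 hosts. The hosts were immunised under the skin with nitrophenol and the GP61-80 peptide coupled to mouse serum albumin, and all groups received tamoxifen on day 5, 18 hours before the lymph nodes were taken on day 6. The hosts kept their own T cells, so transferred cells were sorted by Thy-1.1 and high CD44, and inguinal nodes were pooled. The labels give no age and no vector promoter, and they do not say whether the replicates came from separate animals or cultures, so p-values measure the spread between these libraries only.

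Glycolysis splits glucose into pyruvate, and activated T cells are known to send much of that pyruvate to lactate through lactate dehydrogenase. Pyruvate dehydrogenase instead feeds the tricarboxylic acid cycle in mitochondria, and its kinases, Pdk1 among them, switch it off. The transcription factor HIF-1, whose oxygen-regulated subunit is encoded by Hif1a, is known to induce glucose transporters, glycolytic enzymes and Pdk1 through short ACGTG or GCGTG elements. Bach2 is a repressor that pairs with small Maf proteins at sites resembling those of AP-1, and Bcl6, the factor that defines Tfh cells, has been described as a repressor of glycolytic genes.

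Libraries held 7862879 to 9889859 counts over genes, and 14689 to 15167 genes had at least 1 count. Levels are given as CPM, library-size scaled counts with trimmed mean of M-values factors of 0.985 to 1.01. Where a gene has 0 counts, up to 3 counts remain possible (95% confidence, counting error only), which equals 0.301 to 0.380 CPM. Bach2 itself stood at 121 and 135 CPM in Bach2 Tfh libraries, against 11.2 and 14.0 CPM in empty vector Tfh libraries. In non-Tfh cells it stood at 131 and 158 CPM with the Bach2 vector, against 24.9 and 28.9 CPM with the empty vector. The summed CD4 T cell markers were high in all 8 libraries, and Cxcr5 stood at 577 to 815 CPM in Tfh libraries against 17.4 to 28.3 CPM in non-Tfh libraries. The 7 B cell and plasma cell markers summed to 684 to 822 CPM in Tfh libraries against 323 to 429 CPM in non-Tfh libraries. Nearly all of that was Ighm, while Cd79a and Ms4a1 were at or below 3.06 CPM. The 7 myeloid and dendritic cell markers summed to 6.92 to 9.24 CPM in Tfh libraries against 11.2 to 20.3 CPM in non-Tfh libraries. The 4 stroma and endothelium markers summed to 229 to 281 CPM in Tfh libraries against 177 to 205 CPM in non-Tfh libraries. Nearly all of that was Pecam1, while Pdpn was at 0 and Col1a1 and Cdh5 did not exceed 1.01 CPM. Both CD8 T cell markers together stood at 14.8 to 20.4 CPM in Tfh libraries against 13.3 to 19.7 CPM in non-Tfh libraries, nearly all of it Cd8b1, with Cd8a at or below 0.764 CPM. Of the 4 red blood cell markers, Hba-a2, Hbb-bs and Hbb-bt were at 0, and Hba-a1 reached 0.109 CPM in 1 library. The part of these marker levels in the results was not tested.

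The sequence before the transcription start shows where the HIF-type letters lie in the genes on which the results turn. RefSeq promoter windows of GRCm38.p6, cut to the 250 bases before the first listed start, were found for 39 of the 41 genes, all but Slc2a3 and Idh3a. The 6 below were chosen for the results they accompany: Pgk1, Gapdh and Ldha fell with the Bach2 vector on average over both cell types, Pdk1 rose, and Eno1 and Hif1a differed between cell types. They are written 5′ to 3′ on the strand of the gene, and capitals mark ACGTG or GCGTG on either strand, so that a match on the other strand appears as its complement, read backwards. No exon of the GENCODE M21 annotation overlaps them. The windows of Gapdh, Ldha and Hif1a lie within their annotated genes, upstream of an inner start. All 6 hold HIF-type letters, but not every gene that fell with the Bach2 vector does. The windows of Aldoa, Tpi1, Pkm and Cs, which also fell on average, hold neither ACGTG nor GCGTG. Annotated exons cover 193 of the 250 bases for Aldoa, whose window lies within its annotated gene, 208 for Pkm and 138 for Tpi1. No annotated exon overlaps the window of Cs. At least 1 of these motifs was in 32 of the 39 windows (82.1%), against 38.6% of all and 58.7% of the tested genes' windows.
Pgk1, chrX:106186850-106187099, plus strand: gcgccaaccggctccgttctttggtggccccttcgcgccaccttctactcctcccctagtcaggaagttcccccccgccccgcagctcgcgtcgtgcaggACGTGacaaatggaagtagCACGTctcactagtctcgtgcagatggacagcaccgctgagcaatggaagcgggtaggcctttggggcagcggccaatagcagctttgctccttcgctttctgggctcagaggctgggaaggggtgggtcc
Gapdh, chr6:125165774-125166023, minus strand: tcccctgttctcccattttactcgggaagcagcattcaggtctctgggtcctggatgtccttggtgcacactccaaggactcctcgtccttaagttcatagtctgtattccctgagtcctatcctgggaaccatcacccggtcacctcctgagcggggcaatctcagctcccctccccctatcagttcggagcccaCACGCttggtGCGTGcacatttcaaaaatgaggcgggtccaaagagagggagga
Ldha, chr7:46845554-46845803, plus strand: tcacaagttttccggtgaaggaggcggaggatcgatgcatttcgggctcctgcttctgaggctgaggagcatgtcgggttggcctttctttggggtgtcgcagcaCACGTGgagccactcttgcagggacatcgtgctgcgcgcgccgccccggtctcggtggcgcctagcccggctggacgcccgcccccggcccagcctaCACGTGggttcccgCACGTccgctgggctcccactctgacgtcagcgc
Eno1, chr4:150236458-150236707, plus strand: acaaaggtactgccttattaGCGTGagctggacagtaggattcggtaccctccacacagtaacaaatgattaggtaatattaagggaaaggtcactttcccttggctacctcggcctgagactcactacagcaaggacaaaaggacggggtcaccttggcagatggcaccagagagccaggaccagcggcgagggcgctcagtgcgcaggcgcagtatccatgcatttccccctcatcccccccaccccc
Pdk1, chr2:71872974-71873223, plus strand: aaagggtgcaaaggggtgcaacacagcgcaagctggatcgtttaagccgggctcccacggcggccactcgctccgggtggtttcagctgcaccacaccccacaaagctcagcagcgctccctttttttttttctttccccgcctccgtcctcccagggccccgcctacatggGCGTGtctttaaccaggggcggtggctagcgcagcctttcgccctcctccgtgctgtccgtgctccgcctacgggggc
Hif1a, chr12:73907617-73907866, plus strand: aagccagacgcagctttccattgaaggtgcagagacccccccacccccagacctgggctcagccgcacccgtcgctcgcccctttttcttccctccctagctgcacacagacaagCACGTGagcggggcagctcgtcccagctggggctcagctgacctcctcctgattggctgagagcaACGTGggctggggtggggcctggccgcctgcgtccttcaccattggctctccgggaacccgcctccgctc

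Both strands were searched for 5 motifs. Besides both HIF-type motifs, these were the E-box of Myc and related factors, CACGTG, which holds the first HIF-type motif on both strands, an AP-1 type motif, TGACTCA, and TGCTGA, the core of a Maf site. The motif ACGTG was held by 15 of the 39 windows (38.5%), against 16.6% of the windows of all genes and 22.7% of those of the tested genes. GCGTG was held by 24 (61.5%), against 28.2% of all and 47% of the tested genes' windows. CACGTG was held by 5 (12.8%), against 6.05% of all and 8.66% of the tested genes' windows. TGCTGA was held by 5 (12.8%), against 15.8% of all and 12.1% of the tested genes' windows. TGACTCA was in none of the 39 windows, against 4.43% of all and 2.71% of the tested genes' windows, and no match says only that these letters are not in this window. The GC content, which affects how often such letters occur, had a median of 61.2% in these windows, 52% in all windows and 60% in those of tested genes. Matches are a description of the letters, not of binding.

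Per length of the annotated exons (TPM, counts per base of exon, scaled to one total in each library), Ldha was the most abundant of the 41 genes, with a mean of 1650 TPM over the 8 libraries. Pkm followed at 914 TPM, Aldoa at 551 TPM, Gapdh at 527 TPM and Eno1 at 471 TPM. The least abundant were Eno3 at 5.15 TPM and Hk2 at 2.44 TPM. Ldha, which makes lactate from pyruvate, lay above the other 40 genes in every library, from 1306 to 1932 TPM, whereas Pkm lay from 807 to 1091 TPM. The length used takes in every annotated exon of a gene, over all its transcripts, so this order depends on the annotation.

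**Figure D1:**
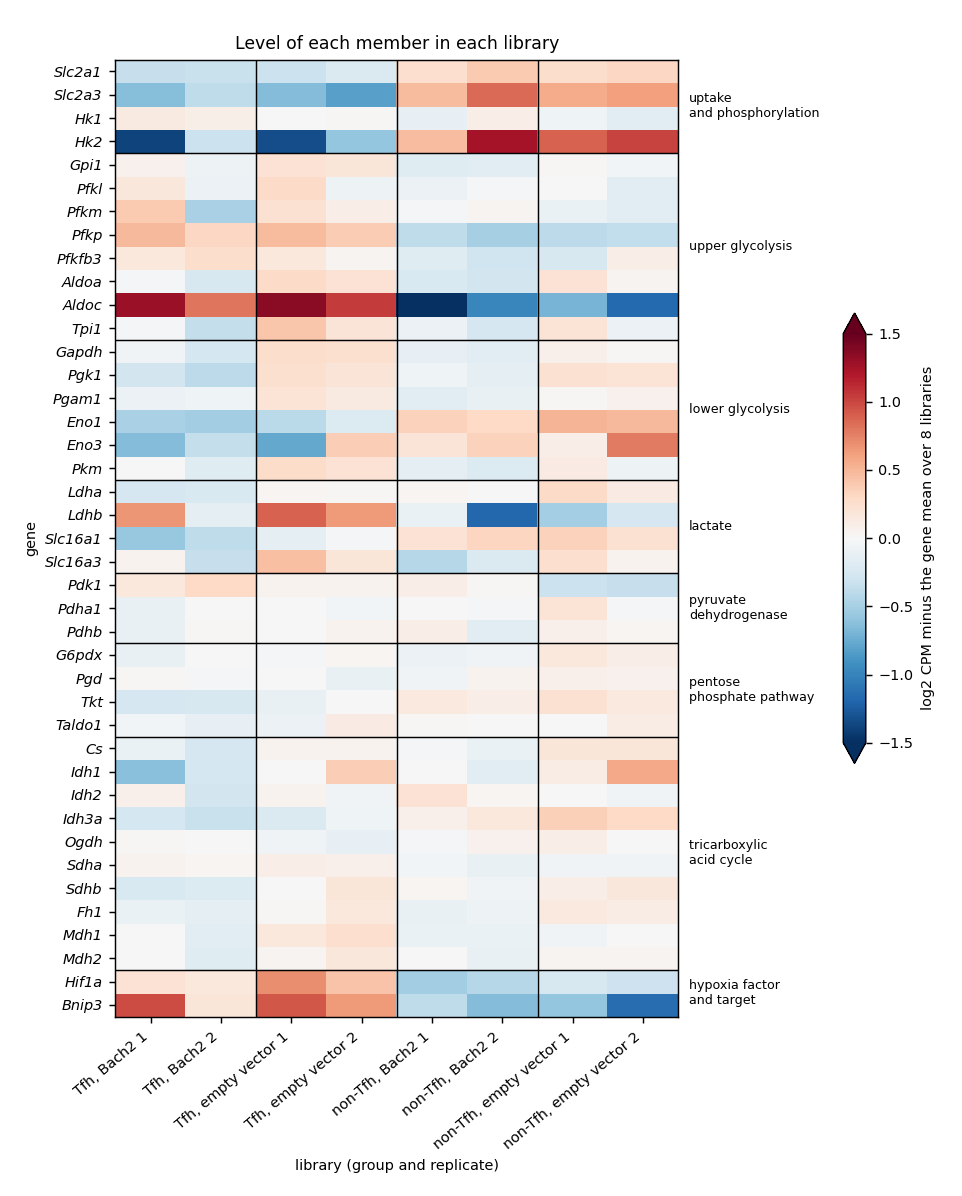
Each of the 41 genes (rows, grouped by role) in each of the 8 libraries (columns), coloured by log2 CPM minus the gene's mean over the libraries, red above and blue below, with the colour scale ending at -1.5 and 1.5. Aldoc, Pfkp, Hif1a and Bnip3 are red in Tfh columns, Slc2a3, Hk2 and Eno1 are blue there, and most rows from Gapdh to Ldha are paler or bluer in Bach2 than in empty vector columns of the same cell type.

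The first question was how Tfh cells differed from non-Tfh cells. They did not differ in one direction over the pathway. Glucose transporters, hexokinase 2, enolase 1 and the lactate transporter Slc16a1 were lower in Tfh cells, and phosphofructokinase P, aldolase C, Hif1a and Bnip3 were higher. With the Bach2 vector 5 of the 41 genes were higher and 8 lower in Tfh cells (edgeR, quasi-likelihood, Benjamini-Hochberg adjusted p below 0.05). The same comparison called 24.4% of all tested genes, 11.6% higher and 12.7% lower. With the empty vector 6 were higher and 7 lower, where 21.9% of all tested genes were called, 10.6% higher and 11.3% lower. The called shares of the 41 genes, 12.2% higher and 19.5% lower with Bach2 and 14.6% higher and 17.1% lower with empty vector, were thus not far from those of all genes, and the median log2 fold changes of the 41 genes were -0.02 and 0.03. In 11 genes the call held with both vectors: Pfkp, Aldoc, Hif1a and Bnip3 higher, and Slc2a1, Slc2a3, Hk2, Eno1, Slc16a1, Tkt and Idh3a lower in Tfh cells. The estimates with the Bach2 vector and with the empty vector come from different libraries, and across the 41 genes they had a Pearson correlation of 0.97; genes are not independent replicates, and both estimates share the scaling. By separation of libraries, 9 of the 41 genes had both Tfh values above both non-Tfh values with Bach2 (22%, against 29.3% of all tested genes) and 13 below (31.7%, against 30.5%). With empty vector 14 lay above (34.1%, against 31.3%) and 12 below (29.3%, against 30.9%). With both vectors at once 8 lay above (19.5%, against 20.6%) and 8 below (19.5%, against 20.8%). In bulk RNA, fewer cells expressing a gene and less of its RNA per cell cannot be told apart.

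Glucose transporter transcripts were lower in Tfh cells. Slc2a3, a glucose transporter of high affinity (GLUT3, chr6:122727809-122801640 of GRCm38, minus strand), had 43.4 and 51.9 CPM in Bach2 Tfh libraries and 42.9 and 38.3 CPM in empty vector Tfh libraries. In non-Tfh cells it had 94.0 and 122 CPM with Bach2 and 99.7 and 103 CPM with empty vector. All 4 Tfh values lay below all 4 non-Tfh values, and the fold was 2.26-fold lower with Bach2 (log2 fold change -1.18, SE 0.135, adjusted p 2.59e-05) and 2.49-fold lower with empty vector (-1.32, SE 0.137, adjusted p 1.14e-05). Slc2a1 (GLUT1, the transporter best known from activated T cells) had 43.9 and 44.3 CPM in Bach2 Tfh libraries and 44.8 and 48.0 CPM in empty vector Tfh libraries, against 66.8 and 73.2 CPM in Bach2 and 67.2 and 69.4 CPM in empty vector non-Tfh libraries. Again no value overlapped, with a fold of 1.59-fold lower (adjusted p 0.000537) and 1.47-fold lower (adjusted p 0.00220).

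Hexokinases, which trap glucose as glucose 6-phosphate, differed from each other. Hk2, the inducible form, had 1.74 and 3.62 CPM in Bach2 Tfh and 1.81 and 3.04 CPM in empty vector Tfh libraries, against 6.22 and 10.8 CPM in Bach2 and 8.40 and 9.13 CPM in empty vector non-Tfh libraries. It was 3.21-fold lower in Tfh cells with Bach2 (log2 fold change -1.68, SE 0.386, adjusted p 0.00564) and 3.67-fold lower with empty vector (-1.88, SE 0.392, adjusted p 0.00342). At this low level the call was lost without Bach2 Tfh replicate 1 (adjusted p 0.0640) or Bach2 non-Tfh replicate 2 (0.0722), and with empty vector without empty vector Tfh replicate 1 (0.0517). Hk1, the constitutive form, ran from 299 to 325 CPM in Tfh and from 264 to 319 CPM in non-Tfh libraries, with log2 fold changes of 0.11 and 0.13 that did not pass the test (adjusted p 0.385 with Bach2 and 0.319 with empty vector).

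In upper glycolysis, the phosphofructokinase and aldolase isozymes separated the cell types. Pfkp, the platelet-type phosphofructokinase that commits sugar to glycolysis (chr13:6579768-6648777, minus strand), had 806 and 715 CPM in Bach2 Tfh and 801 and 754 CPM in empty vector Tfh libraries, against 444 and 407 CPM in Bach2 and 439.6 and 446 CPM in empty vector non-Tfh libraries. It was 1.79-fold higher in Tfh cells with Bach2 (log2 fold change 0.84, SE 0.0849, adjusted p 7.85e-06) and 1.76-fold higher with empty vector (0.81, SE 0.0848, adjusted p 1.09e-05), and a gene on the opposite strand, Pitrm1, overlaps it. The liver form Pfkl ran from 122 to 158 CPM in Tfh and from 115 to 129 CPM in non-Tfh libraries, and the muscle form Pfkm, which overlaps the far more abundant Senp1, from 5.92 to 10.9 CPM and from 7.35 to 8.53 CPM. Neither passed the test with either vector (adjusted p 0.596 and 0.284 for Pfkl, 0.981 and 0.482 for Pfkm). Pfkfb3, which makes the activator of phosphofructokinase, had 30.7 and 33.1 CPM in Bach2 Tfh against 24.3 and 22.4 CPM in Bach2 non-Tfh libraries (1.36-fold, adjusted p 0.0456). With empty vector it had 30.6 and 28.3 CPM in Tfh against 23.2 and 29.5 CPM in non-Tfh libraries (adjusted p 0.503). The Pfkfb3 call was lost without any 1 of 6 libraries, that is all but the empty vector non-Tfh ones (adjusted p 0.0582 to 0.203), with DESeq2 (0.0903) and with only the 4 libraries compared (0.0647).

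Aldoc, the aldolase best known from brain (chr11:78322968-78327781, plus strand), showed the largest fold of the 41 genes between the cell types. It had 33.7 and 23.9 CPM in Bach2 Tfh and 35 and 28.5 CPM in empty vector Tfh libraries, against 4.37 and 6.99 CPM in Bach2 and 8.51 and 6.12 CPM in empty vector non-Tfh libraries. The difference was 5.06-fold with Bach2 (log2 fold change 2.34, SE 0.256, adjusted p 2.24e-05) and 4.34-fold with empty vector (2.12, SE 0.248, adjusted p 4.04e-05). Aldoa, the major aldolase, was at 520.5 to 747 CPM in Tfh and 508 to 714 CPM in non-Tfh libraries, and its ranges overlapped (adjusted p 0.394 with Bach2 and 0.398 with empty vector).

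**Figure D2:**
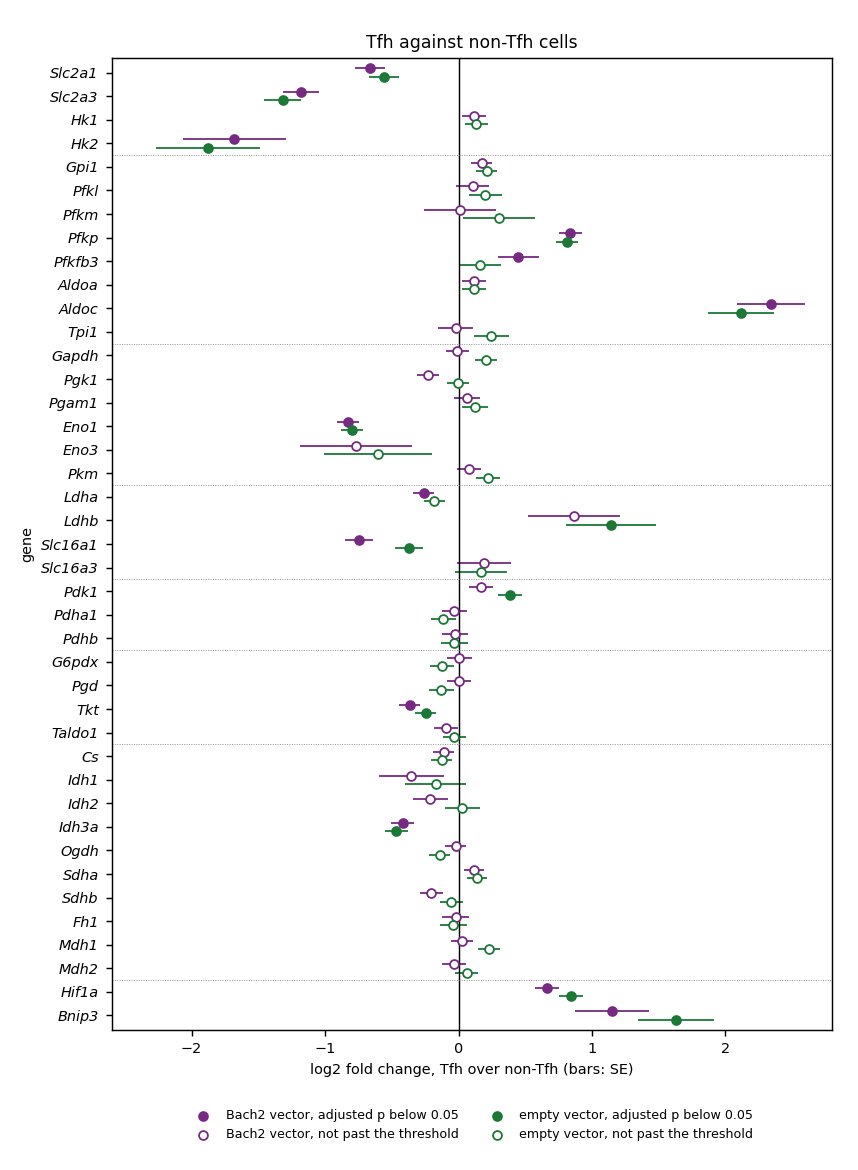
Log2 fold change of Tfh over non-Tfh cells (x axis, bars are SE) for each of the 41 genes (y axis), with the Bach2 vector in purple and with the empty vector in green; filled points passed adjusted p 0.05 and open points did not. The estimates run from -1.88 (Hk2, empty vector) to 2.34 (Aldoc, Bach2 vector), and both colours lie close together for most genes.

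Of lower glycolysis, only Eno1 passed the test between cell types. Eno1, the enolase before pyruvate kinase (chr4:150236721-150248879, plus strand), had 665 and 649 CPM in Bach2 Tfh and 704 and 812 CPM in empty vector Tfh libraries, against 1186 and 1147 CPM in Bach2 and 1328 and 1311 CPM in empty vector non-Tfh libraries. It was 1.77-fold lower in Tfh cells with Bach2 (log2 fold change -0.83, SE 0.0828, adjusted p 6.89e-06) and 1.74-fold lower with empty vector (-0.80, SE 0.0826, adjusted p 1.00e-05). The muscle enolase Eno3 stayed between 1.91 and 5.56 CPM. Gapdh, Pgk1, Pgam1 and Pkm did not pass the test with either vector, with log2 fold changes from -0.23 (Pgk1, Bach2 vector, adjusted p 0.0635) to 0.22 (Pkm, empty vector, adjusted p 0.0977).

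The lactate genes moved in both directions. Slc16a1, the lactate and pyruvate transporter MCT1, had 59.1 and 67.4 CPM in Bach2 Tfh and 79.4 and 86.7 CPM in empty vector Tfh libraries, against 102 and 109.9 CPM in Bach2 and 112 and 103 CPM in empty vector non-Tfh libraries. It was 1.67-fold lower in Tfh cells with Bach2 (adjusted p 0.000149) and 1.29-fold lower with empty vector (adjusted p 0.0194). The call with empty vector was lost without empty vector Tfh replicate 1 (adjusted p 0.160) or either empty vector non-Tfh replicate (0.155 and 0.0584). Slc16a3, the lactate exporter MCT4, had 12 to 20.8 CPM in Tfh and 11.2 to 18.1 CPM in non-Tfh libraries and did not pass (adjusted p 0.555 with Bach2 and 0.598 with empty vector). Ldha had 1754 and 1782 CPM in Bach2 Tfh against 2145 and 2096 CPM in Bach2 non-Tfh libraries (log2 fold change -0.26, SE 0.0782, adjusted p 0.0248), and 2129 and 2126 CPM in empty vector Tfh against 2550.5 and 2276 CPM in empty vector non-Tfh libraries (-0.18, SE 0.0781, adjusted p 0.117). The first call was lost without any 1 of the 4 Bach2 libraries (adjusted p 0.0571 to 0.141). Ldhb, the form that favours pyruvate, had 19.8 and 16.7 CPM in empty vector Tfh against 7.53 and 9.01 CPM in empty vector non-Tfh libraries (2.21-fold higher, adjusted p 0.0323), and 17.0 and 9.66 CPM in Bach2 Tfh against 10 and 4.73 CPM in Bach2 non-Tfh libraries (adjusted p 0.0967). The Ldhb call was lost without any 1 of the 4 empty vector libraries (adjusted p 0.0730 to 0.187).

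Hif1a and its target Bnip3 were higher in Tfh cells. Hif1a (chr12:73901375-73947530, plus strand) had 1003 and 965 CPM in Bach2 Tfh and 1397 and 1163 CPM in empty vector Tfh libraries, against 603 and 642 CPM in Bach2 and 734 and 696 CPM in empty vector non-Tfh libraries. It was 1.58-fold higher with Bach2 (log2 fold change 0.66, SE 0.0912, adjusted p 0.000118) and 1.79-fold higher with empty vector (0.84, SE 0.0913, adjusted p 1.52e-05). Bnip3, a mitophagy receptor, had 21.3 and 12.2 CPM in Bach2 Tfh and 20.6 and 16.8 CPM in empty vector Tfh libraries, against 8.29 and 6.89 CPM in Bach2 and 7.2 and 4.9 CPM in empty vector non-Tfh libraries (2.21-fold, adjusted p 0.00783, and 3.09-fold, adjusted p 0.000920). The Bnip3 call with Bach2 was lost without Bach2 Tfh replicate 1 (log2 fold change 0.69 in place of 1.15, adjusted p 0.123) or Bach2 non-Tfh replicate 2 (0.0650). Slc2a1, Slc2a3, Hk2 and Eno1, also known as HIF-1 targets, were lower in Tfh cells with both vectors. Pdk1, which HIF-1 is also known to induce, was 1.31-fold higher there with empty vector (adjusted p 0.00782 by edgeR). With Bach2 it did not pass (0.202). Among glycolytic enzymes, Pfkp and Aldoc were higher with both vectors. The part of HIF-1 in these differences was not tested.

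Beyond glycolysis few genes differed between the cell types. Pdk1, the kinase that inactivates pyruvate dehydrogenase (chr2:71873224-71903858, plus strand), was higher in Tfh cells with empty vector, at 107 and 108 CPM against 83.0 and 81.9 CPM in empty vector non-Tfh libraries (1.31-fold, adjusted p 0.00782), a call lost without empty vector non-Tfh replicate 2 (adjusted p 0.0656). With the Bach2 vector it had 116 and 128 CPM in Tfh against 111 and 106 CPM in non-Tfh libraries (adjusted p 0.202). Tkt, a transketolase of the pentose phosphate pathway, averaged 205 ± 1.58 CPM in Bach2 Tfh against 265 ± 6.10 CPM in Bach2 non-Tfh cells (SD, n = 2 each; adjusted p 0.00385 by edgeR). With empty vector it averaged 234 ± 11.9 CPM in Tfh against 278 ± 11.0 CPM in non-Tfh cells (SD, n = 2 each; adjusted p 0.0390 by edgeR). The Tkt call with empty vector was lost with DESeq2 (adjusted p 0.0530) and without any 1 of 6 libraries, that is all but the Bach2 Tfh ones (0.0506 to 0.253). Idh3a, a subunit of the mitochondrial NAD-linked isocitrate dehydrogenase, had 131 and 125 CPM in Bach2 Tfh and 136 and 150.3 CPM in empty vector Tfh libraries, against 166 and 176 CPM in Bach2 and 201 and 194 CPM in empty vector non-Tfh libraries (adjusted p 0.00276 and 0.00127). The other 9 genes of the tricarboxylic acid cycle did not pass the test with either vector, nor did G6pdx, the first enzyme of the pentose phosphate pathway, at 96 to 107 CPM in Tfh and 97.7 to 116 CPM in non-Tfh libraries (adjusted p 0.969 with Bach2 and 0.368 with empty vector). Of the cytosolic and the mitochondrial NADP-linked isocitrate dehydrogenases, Idh1 had 7.05 to 14.0 CPM in Tfh and 9.76 to 16.1 CPM in non-Tfh libraries, and Idh2 had 46.7 to 59.8 CPM in Tfh and 54.5 to 65.7 CPM in non-Tfh libraries. Their adjusted p-values were 0.329 and 0.655 for Idh1 and 0.278 and 0.918 for Idh2, with Bach2 and with empty vector.

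Since several steps have alternative enzymes, the share of each form in the summed length-scaled level of its family was computed in each library. Pfkp made up 71.6% ± 1.52 of phosphofructokinase in Bach2 Tfh and 71.0% ± 2.53 in empty vector Tfh cells, against 60.0% ± 2.21 in Bach2 and 61.7% ± 1.99 in empty vector non-Tfh cells (SD, n = 2 each). Hk2 made up 1.18% ± 0.603 of Hk1 and Hk2 together in Bach2 Tfh and 1.14% ± 0.397 in empty vector Tfh cells, against 3.88% ± 1.04 in Bach2 and 4.38% ± 0.447 in empty vector non-Tfh cells (SD, n = 2 each). Tfh and non-Tfh shares did not overlap for either. Aldoc gave 4.36% ± 0.593 and 3.73% ± 0.403 of aldolase in Bach2 and empty vector Tfh cells, against 0.974% ± 0.336 and 0.955% ± 0.137 in Bach2 and empty vector non-Tfh cells (SD, n = 2 each), so Aldoa made up at least 95.2% of it in every library. Ldhb stayed at or below 2.01% of lactate dehydrogenase in every library. These shares carry no test of their own and restate the levels above relative to the sum. They divide by the length of all annotated exons, which is 13401 bases for Pfkp, 6675 for Pfkl and 3340 for Pfkm. The size of the shares and of the sums below thus depends on the annotation. The summed phosphofructokinase level was 204 and 210 TPM in Bach2 and empty vector Tfh cells, against 140 and 138 TPM in Bach2 and empty vector non-Tfh cells. The summed level of Slc2a1 and Slc2a3 was 49.6 and 48.3 TPM in Bach2 and empty vector Tfh cells, against 92.1 and 86.4 TPM in Bach2 and empty vector non-Tfh cells.

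**Figure D3:**
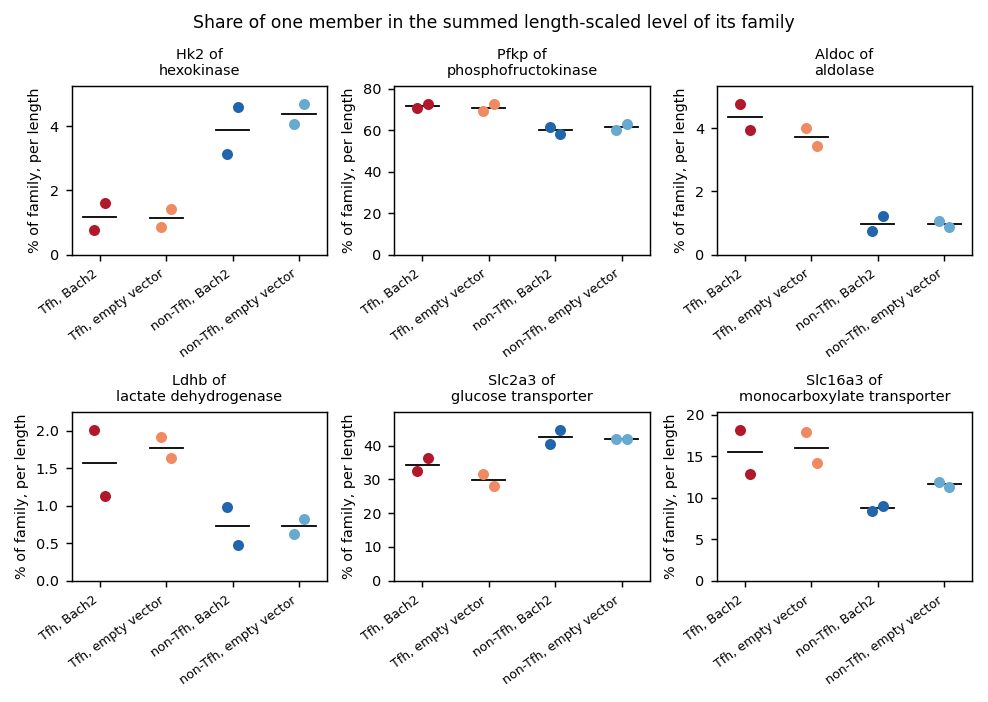
Share (percent, length-scaled, y axis) of Hk2, Pfkp, Aldoc, Ldhb, Slc2a3 and Slc16a3 in the sum of the listed members of their family, per library (points) with the group mean (line), for the 4 groups on the x axis. Points of Tfh and non-Tfh libraries do not overlap in any of the 6 panels, and the largest shares are those of Pfkp, at 71.6% and 71.0% in Tfh cells against 60.0% and 61.7% in non-Tfh cells.

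The second question was what the Bach2 vector did. On average over both cell types, the glycolytic genes Aldoa, Tpi1, Gapdh, Pgk1, Pkm and Ldha, the cycle genes Cs and Sdhb, and Hif1a fell with the Bach2 vector, by 0.22 (Sdhb) to 0.44 (Pgk1) on the log2 scale, and Pdk1 rose. Within one cell type few calls were made. In Tfh cells 2 of the 41 genes, Pgk1 and Gapdh, fell and none rose, where 1.71% of all tested genes were called (1.16% lower, 0.549% higher). That count was 0 without Bach2 Tfh replicate 2, 1 without empty vector Tfh replicate 1, 5 without Bach2 Tfh replicate 1, and 6 with DESeq2. In non-Tfh cells edgeR called none of the 41, where 0.871% of all tested genes were called (0.619% lower). At an unadjusted p under 0.05, 13 of the 41 genes passed there, 12 lower and 1 higher (29.3% and 2.44%, against 5.1% lower and 5.25% higher among all tested genes), and DESeq2 called 1. Without Bach2 Tfh replicate 1 or 2, edgeR called 1 or 2 there. Averaged over both cell types, the vector effect called 10 of the 41 genes, 9 lower and 1 higher, where 5.27% of all tested genes were called (2.9% lower and 2.37% higher). The lower calls, 22% of the 41 genes, were thus a larger share than among all genes. The shares were not matched for expression level, and the 41 genes were chosen with earlier results of these data known. The count rests on single libraries: it was 10 without Bach2 Tfh replicate 1, and lay between 2 and 6 when any 1 of the other 7 libraries was left out. It was 2 without Bach2 non-Tfh replicate 2 or empty vector non-Tfh replicate 1, and 3 without Bach2 Tfh replicate 2. The median log2 fold change of the 41 genes was -0.19 in Tfh cells, -0.15 in non-Tfh cells and -0.18 on average, against -0.001 to 0.001 for all tested genes. The non-Tfh median was -0.10 without empty vector non-Tfh replicate 1 and -0.09 without replicate 2, and the average median was -0.12 without empty vector Tfh replicate 2. The 7 Tfh cell markers moved with the vector as well: they summed to 2398 to 2826 CPM in Bach2 Tfh against 2976 to 3393 CPM in empty vector Tfh libraries, and to 906 to 1024 CPM in Bach2 non-Tfh against 1322 to 1414 CPM in empty vector non-Tfh libraries, with no overlap in either cell type. Icos was the most abundant of these markers, and it was higher in non-Tfh than in Tfh libraries with either vector. In non-Tfh cells Icos stood at 693 and 641 CPM with Bach2 against 938 and 915 CPM with empty vector. Singly, Pdcd1, Icos and Tox2 overlapped between the vectors in Tfh cells, and Cxcr5, Bcl6, Il21 and Sh2d1a did not. In non-Tfh cells only Cxcr5 overlapped. The part of these markers in the vector results was not tested.

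Both Bach2 libraries lay below both empty vector libraries for 22 of the 41 genes in Tfh cells (53.7%, against 22.9% of all tested genes) and for 21 in non-Tfh cells (51.2%, against 21.3%). In both cell types at once this held for 19 genes (46.3%, against 9.46% of all tested genes): Gpi1, Aldoa, Tpi1, Gapdh, Pgk1, Pgam1, Eno1, Pkm, Ldha, Slc16a3, Tkt, Cs, Idh1, Idh3a, Sdhb, Fh1, Mdh1, Mdh2 and Hif1a. The opposite order in both cell types held for Pdk1 only (2.44%, against 8.34%). Estimates were negative in both cell types for 29 of the 41 genes (70.7%, against 32.7%). The estimates in Tfh and in non-Tfh cells share no library, and across the 41 genes they had a Pearson correlation of 0.64, with the same scaling behind both. The labels do not say whether Tfh and non-Tfh libraries came from the same hosts, so both cell types may not be independent.

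Pgk1, phosphoglycerate kinase, which forms the first ATP of the pathway (chrX:106187100-106203699, plus strand, its window with ACGTG printed above), had the smallest p of the 41 genes in the average vector effect. It had 124 and 114 CPM in Bach2 Tfh against 177 and 171 CPM in empty vector Tfh libraries, and 144 and 136 CPM in Bach2 non-Tfh against 177 and 174 CPM in empty vector non-Tfh libraries. All 4 Bach2 values lay below all 4 empty vector values. Pgk1 fell by 31.6% in Tfh cells (log2 fold change -0.55, SE 0.0843, adjusted p 0.00882 by edgeR) and by 26.1% on average (-0.44, SE 0.0594, adjusted p 0.00146). In non-Tfh cells alone its log2 fold change was -0.32 (adjusted p 0.113). The call in Tfh cells was lost without Bach2 Tfh replicate 2 (adjusted p 0.0699), while the average effect kept its call under every alternative run. A pair of near-identical gene copies held 0.316% to 1.21% of the reads of Pgk1 and its copies.

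Gapdh, which oxidises glyceraldehyde 3-phosphate (chr6:125161715-125166467, minus strand), had 805 and 698 CPM in Bach2 Tfh against 1005 and 987 CPM in empty vector Tfh libraries, and 765 and 747 CPM in Bach2 non-Tfh against 881 and 844 CPM in empty vector non-Tfh libraries. Gapdh fell by 24.5% in Tfh cells (log2 fold change -0.41, SE 0.0829, adjusted p 0.0245) and by 18.7% on average (-0.30, SE 0.0586, adjusted p 0.0118). The call in Tfh cells was lost with only the 4 libraries compared (adjusted p 0.0524) and without Bach2 Tfh replicate 2 (0.184) or empty vector Tfh replicate 1 (0.0698) or 2 (0.131). The average call was lost without Bach2 non-Tfh replicate 2 (0.0529) or empty vector non-Tfh replicate 1 (0.0532). Gapdh has 82 near-identical copies in the genome, which held 2.15% to 2.79% of the counts of gene and copies. Gapdh is often used as a constant reference transcript.

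Aldoa (chr7:126795234-126800751, minus strand) had 600.3 and 520.5 CPM in Bach2 Tfh against 747 and 712 CPM in empty vector Tfh libraries, and 525 and 508 CPM in Bach2 non-Tfh against 714 and 631 CPM in empty vector non-Tfh libraries. All 4 Bach2 values lay below all 4 empty vector values. Its average effect (log2 fold change -0.38, SE 0.0637, adjusted p 0.00536) kept its call under every alternative run, with log2 fold changes of -0.38 in both Tfh cells (adjusted p 0.05001, just above the threshold) and non-Tfh cells (adjusted p 0.0773). Tpi1, the isomerase beside aldolase, had 276 and 220.1 CPM in Bach2 Tfh against 379 and 323 CPM in empty vector Tfh libraries, and 267 and 238 CPM in Bach2 non-Tfh against 326 and 267 CPM in empty vector non-Tfh libraries (average log2 fold change -0.37, SE 0.0930, adjusted p 0.0469). Without Bach2 Tfh replicate 2, either empty vector Tfh replicate, Bach2 non-Tfh replicate 2 or empty vector non-Tfh replicate 1 the Tpi1 call was lost (adjusted p 0.0591 to 0.167).

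Pkm, pyruvate kinase, averaged 1643 ± 143 CPM in Bach2 Tfh against 2082 ± 53.8 CPM in empty vector Tfh cells, and 1556 ± 40.4 CPM in Bach2 non-Tfh against 1789 ± 178 CPM in empty vector non-Tfh cells (SD, n = 2 each). Its average log2 fold change was -0.27 (SE 0.0629, adjusted p 0.0245), and the call was lost without replicate 2 of either Bach2 group or replicate 1 of either empty vector group (adjusted p 0.0501 to 0.112). Ldha, whose values per library stand above, fell by 14.5% on average (log2 fold change -0.23, SE 0.0553, adjusted p 0.0313). That call was lost without any 1 of 7 libraries, that is all but empty vector non-Tfh replicate 2 (adjusted p 0.0511 to 0.141). Eno1, Gpi1 and Slc16a3 did not pass on average (log2 fold change -0.19, adjusted p 0.0729, for Eno1; adjusted p 0.0757 for Gpi1; -0.47, adjusted p 0.0692, for Slc16a3).

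The summed level of the 18 genes from hexokinase to lactate dehydrogenase, each counted in CPM, was 7774 and 7158 CPM in Bach2 Tfh libraries against 9105 and 8916 CPM in empty vector Tfh libraries. In non-Tfh cells it was 7882 and 7686 CPM with Bach2 against 9227 and 8471 CPM with empty vector. No Bach2 sum reached an empty vector sum of its cell type, and the ratios were 0.829 in Tfh and 0.880 in non-Tfh cells. By role, the ratio of Bach2 to empty vector sums was 0.792 in Tfh and 0.873 in non-Tfh cells for lower glycolysis, and 0.859 and 0.867 for upper glycolysis. It was 0.827 and 0.882 for the lactate genes, 0.907 and 0.931 for the tricarboxylic acid cycle and 0.930 and 0.950 for the pentose phosphate pathway. For uptake and phosphorylation it was 1.07 in both cell types, and for pyruvate dehydrogenase 1.01 and 1.02. The most abundant genes of a role dominate such sums, which carry no test.

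**Figure D4:**
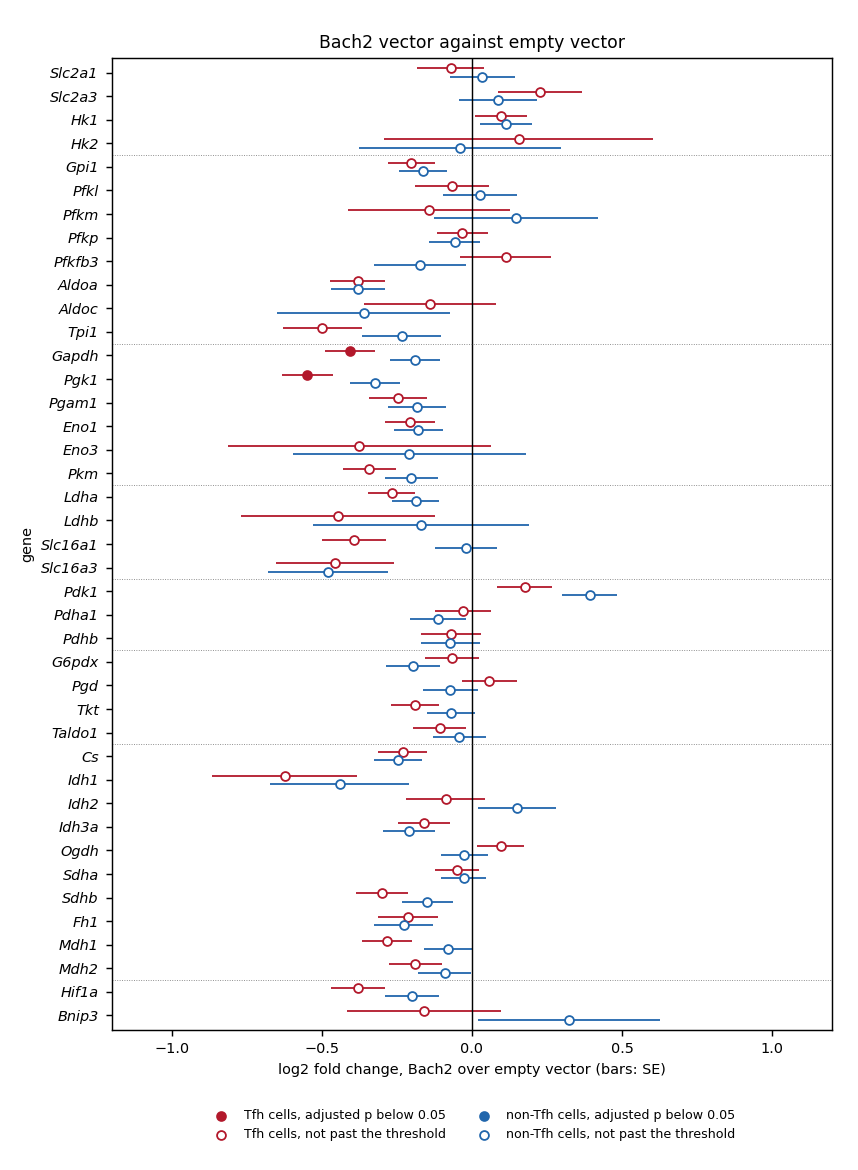
Log2 fold change of Bach2 over empty vector (x axis, bars are SE) for each of the 41 genes (y axis), in Tfh cells in red and in non-Tfh cells in blue; filled points passed adjusted p 0.05 and open points did not. The only filled points are those of Gapdh and Pgk1 in Tfh cells, and most points from aldolase to lactate dehydrogenase lie left of 0 in both colours.

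Pdk1 was the only one of the 41 genes called higher with Bach2, in the average effect. Slc2a3 and Hk1 also had positive estimates in both cell types but did not pass the test. Pdk1 had 116 and 128 CPM in Bach2 Tfh against 107 and 108 CPM in empty vector Tfh libraries, and 111 and 106 CPM in Bach2 non-Tfh against 83.0 and 81.9 CPM in empty vector non-Tfh libraries. Bach2 and empty vector values did not overlap within either cell type. The average effect was a rise of 21.8% (log2 fold change 0.28, SE 0.0646, adjusted p 0.0220). In non-Tfh cells alone the log2 fold change was 0.39 (SE 0.0919, adjusted p 0.0728), and in Tfh cells 0.18 (adjusted p 0.367). The average call was lost without any 1 of 6 libraries, that is all but Bach2 Tfh replicate 1 and empty vector Tfh replicate 1 (adjusted p 0.0504 to 0.0985). The pyruvate dehydrogenase subunits that Pdk1 acts on, Pdha1 and Pdhb, ran from 141 to 154 and 120.1 to 132 CPM in Bach2 Tfh libraries, against 148 to 152 and 129.6 to 135 CPM in empty vector Tfh libraries. In non-Tfh libraries Pdha1 had 152 and 149 CPM with Bach2 against 175 and 150 CPM with empty vector. Pdhb had 140 and 117 CPM there with Bach2 against 137 and 133 CPM with empty vector. Neither passed the test on average (adjusted p 0.598 for Pdha1 and 0.631 for Pdhb by edgeR).

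Cs and Sdhb, of the tricarboxylic acid cycle, fell on average. Cs, citrate synthase, had 313 and 281 CPM in Bach2 Tfh against 349 and 349 CPM in empty vector Tfh libraries, and 329.6 and 313 CPM in Bach2 non-Tfh against 381 and 381 CPM in empty vector non-Tfh libraries (log2 fold change -0.24, SE 0.0569, adjusted p 0.0284). Its call was lost without any 1 of 6 libraries, that is all but replicate 1 of each Bach2 group (adjusted p 0.0536 to 0.130). Sdhb, the iron-sulfur subunit of succinate dehydrogenase, averaged 213 ± 2.47 CPM in Bach2 Tfh against 262 ± 23.6 CPM in empty vector Tfh cells, and 245 ± 10.7 CPM in Bach2 non-Tfh against 272 ± 9.39 CPM in empty vector non-Tfh cells (SD, n = 2 each; average log2 fold change -0.22, SE 0.0605, adjusted p 0.0469 by edgeR). Sdhb kept its call only when empty vector Tfh replicate 1 was the library left out; otherwise adjusted p was 0.0542 to 0.189, and 0.0538 without robust estimation. Idh1 had the most negative average estimate of the cycle list (log2 fold change -0.53, adjusted p 0.0833) at a low level, and Idh2 had 59.8 and 46.7 CPM in Bach2 Tfh against 58.7 and 54.5 CPM in empty vector Tfh libraries.

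Hif1a fell by 18.2% on average with Bach2 (log2 fold change -0.29, SE 0.0642, adjusted p 0.0196), from the values given per library above. In Tfh cells its log2 fold change was -0.38 (adjusted p 0.0518) and in non-Tfh cells -0.20. The average call was lost without any 1 of 6 libraries, that is all but Bach2 Tfh replicate 1 and empty vector Tfh replicate 2 (adjusted p 0.0509 to 0.0832). Bnip3 had log2 fold changes of opposite sign, -0.16 in Tfh and 0.32 in non-Tfh cells, neither past the test. Slc2a1, Hk2, Pfkl, Pfkm, Pfkfb3, Pgd, Idh2 and Ogdh also had estimates of opposite sign in the cell types.

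**Figure D5:**
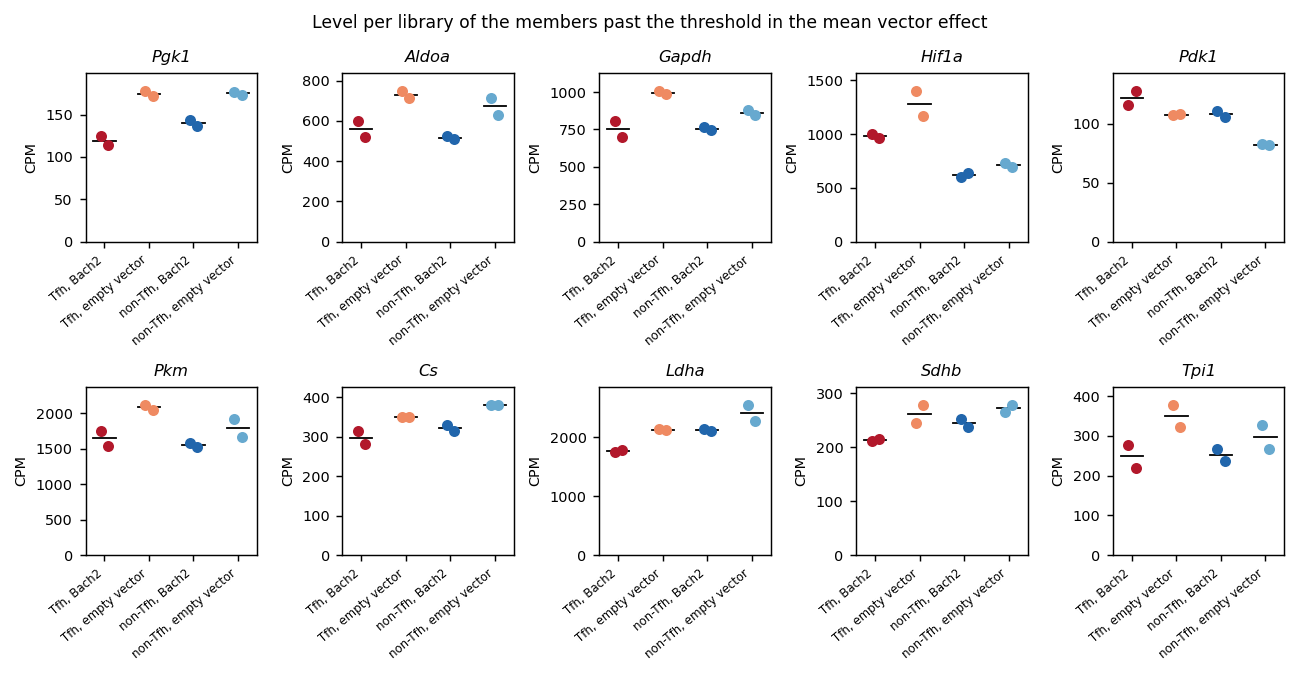
CPM (y axis, starting at 0) in each library (points) with the group mean (line) for the 10 genes past adjusted p 0.05 in the average effect of the Bach2 vector, ordered by p, in the 4 groups on the x axis. In 9 panels the Bach2 points lie below the empty vector points of the same cell type, and in the Pdk1 panel they lie above them.

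The vector effect was not shown to differ between the cell types for any of the 41 genes. By edgeR the interaction called none of the 41 and none of the 11475 tested genes (0.0%). At an unadjusted p under 0.05 it passed for 1 of the 41, Slc16a1, and for 539 of all genes (4.7%), and DESeq2 called none of the 41 and 4 genes in all. Slc16a1 averaged 63.3 ± 5.84 CPM in Bach2 Tfh against 83.0 ± 5.18 CPM in empty vector Tfh cells, and 106 ± 5.68 CPM in Bach2 non-Tfh against 107 ± 6.11 CPM in empty vector non-Tfh cells (SD, n = 2 each). The vector effect in Tfh minus that in non-Tfh cells was -0.37 on the log2 scale (SE 0.148, p 0.0251 and adjusted p 0.985 by edgeR). In Tfh cells alone its log2 fold change was -0.39 (adjusted p 0.0824). The median difference over the 41 genes was -0.06, and all 6 genes of lower glycolysis had a negative one, between -0.22 and -0.03.

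Other genes of these pathways were taken as a list of 119, of which 91 passed the filter. In Tfh cells the vector called 1 of them (1.1%, against 1.71% of all tested genes), Rictor, a subunit of mTOR complex 2, at 119 and 140.0 CPM with Bach2 against 89.3 and 95.9 CPM with empty vector (log2 fold change 0.49, SE 0.103, adjusted p 0.0283). In non-Tfh cells edgeR called none, and 15 had an unadjusted p under 0.05 (16.5%, against 10.4% of all tested genes). On average over both cell types 3 rose and 2 fell, 5.49% of the 91, close to the 5.27% of all tested genes, so these calls do not set the list apart. Mlxip, a sugar-sensing transcription factor, rose (log2 fold change 0.38, adjusted p 0.0186), as did Rictor (0.32, adjusted p 0.0237). Txnip, a target of Mlxip that restrains glucose uptake, had 218 and 243 CPM in Bach2 Tfh against 185 and 198 CPM in empty vector Tfh libraries, and 376 and 496 CPM in Bach2 non-Tfh against 297 and 344 CPM in empty vector non-Tfh libraries (0.36, adjusted p 0.0397). Bcl6 fell with Bach2 (-0.48, adjusted p 0.0136), as did the transporter gene Slc16a6 (-0.61, adjusted p 0.0351). Bcl6 had 120 and 102 CPM in Bach2 Tfh against 159 and 135 CPM in empty vector Tfh libraries. Each of these average calls rests on single libraries. That of Mlxip was lost without replicate 2 of either Bach2 group or either empty vector non-Tfh replicate (adjusted p 0.0579 to 0.0894), and that of Rictor also without empty vector Tfh replicate 1 (0.0513 to 0.105 over these 5). The Txnip call was lost without any 1 of 6 libraries, that is all but replicate 1 of each Bach2 group (0.0574 to 0.137). The Slc16a6 call was lost without replicate 1 of either Bach2 group, empty vector Tfh replicate 2 or either empty vector non-Tfh replicate (0.0629 to 0.149). The Bcl6 call was lost without replicate 2 of the Bach2 or of the empty vector non-Tfh group (0.0630 and 0.0830). In Tfh cells the Rictor call was lost without Bach2 Tfh replicate 2 or either empty vector Tfh replicate (0.120 to 0.201). None of the 12 further glycolysis genes that were tested, such as alternative isozymes, was called by edgeR in the average vector effect, and 1 had an unadjusted p under 0.05 (8.33%, against 20.2% of all tested genes).

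Between the cell types 13 of the 91 were higher and 19 lower in Tfh cells with Bach2 (14.3% and 20.9%, against 11.6% and 12.7% of all tested genes). With empty vector 14 were higher and 17 lower (15.4% and 18.7%, against 10.6% and 11.3%). Among 19 tested genes of the HIF-1 response, 4 were higher and 4 lower in Tfh cells with Bach2 (21.1% each, against 11.6% and 12.7%). With empty vector 4 of these were higher and 5 lower (21.1% and 26.3%, against 10.6% and 11.3% of all tested genes). Egln3, an oxygen-sensing hydroxylase induced by HIF-1, was higher in Tfh cells (log2 fold change 1.81 with Bach2 and 1.70 with empty vector). P4ha1, a collagen prolyl hydroxylase, was higher too (0.84 and 0.83). Bhlhe40, a transcription factor, was lower (-2.56 and -2.40), as was Ero1l, an oxidase of the endoplasmic reticulum (-0.75 and -0.87). Bcl6, itself a marker of the sorted Tfh cells, was higher in Tfh cells (2.87 and 2.71). Txnip was lower in Tfh cells (-0.92, adjusted p 0.000222, and -0.75, adjusted p 0.00113). Myc, a known activator of glycolytic genes in T cells, had 19.2 and 29.4 CPM in Bach2 Tfh and 23.1 and 26.6 CPM in empty vector Tfh libraries, against 86.4 and 103 CPM in Bach2 and 69.6 and 76.5 CPM in empty vector non-Tfh libraries (-1.97, adjusted p 4.61e-06, and -1.56, adjusted p 3.38e-05). The Bach2 vector did not change Myc past the test (average log2 fold change 0.17, adjusted p 0.474).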

How the data were processed

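Bulk RNA-seq of 8 libraries was analysed from the deposited tables, in which the authors give 1 whole-number count per Ensembl gene. Per the submitters' processing notes, TopHat2, Bowtie2 and featureCounts were used on GRCm38/mm10. Versions, the strand setting and the treatment of multi-mapping reads were not given in the sources used. The kits named in the labels' protocols do not mark strand, so reads from exons shared with a gene on the other strand cannot be told apart. Overlap was scored over whole gene spans, so shared exons were not shown. Such genes overlap G6pdx, Pfkm and Pfkp, and other members with fewer counts beside their own. Among these are Gapdh, with 1477 counts of Iffo1 beside 60960, and Tpi1, with 266 of Spsb2 beside 20838. Symbols, positions and exon lengths came from GENCODE M21, which matched 37693 of 39179 identifiers.

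Genes were kept with filterByExpr (minimum count 10, minimum total 15). edgeR 4.0.16 (R 4.3.3) fitted all 8 libraries with 1 coefficient per group, TMM factors and robust quasi-likelihood. Adjusted p-values are Benjamini-Hochberg values over 11475 genes, with a threshold of 0.05. The common dispersion was 0.00978 (9.89% coefficient of variation). Tests rested on 4 residual degrees of freedom and on prior ones borrowed across genes, with a median of 9.90. The SE is the log2 fold change divided by the root of F. The average effect is the mean of both vector effects. An exact permutation test of 2 against 2 libraries cannot pass 0.05, so single values were tested in this model only. Alternatives were DESeq2 1.42.0, DESeq2 size factors, no filter, a replicate block, non-robust fitting, only the 4 libraries compared, each library left out, and (chosen after seeing the data) added counts of near-identical copies, defined by 95% identity over 150 bases and 50% of the copy.

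The 41 genes, the other lists and the genes named were chosen with earlier results of these data known. Named were all members called in a vector comparison, the 15 called members with the smallest adjusted p in each cell type comparison, 22 further members whatever their values, the 3 other pathway genes with the smallest adjusted p per direction and comparison, Txnip and Myc. Fitting was tested on simulated data. Replicates of a group differed beyond sampling noise (chi-square per degree of freedom 5.67 to 8.81), so no pair was counted as 1 library; this does not show that they came from separate animals or cultures. Protein sequences were not used here.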

Additional observations from a re-analysis of the deposited data

How the results depend on the processing

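None of the calls named for the 41 genes, nor those named for 10 other pathway genes, changed direction under any alternative run. Over the alternatives, the median vector effect of the 41 genes ran from -0.24 to -0.13 in Tfh cells. It ran from -0.16 to -0.09 in non-Tfh cells and from -0.20 to -0.12 on average. The cell type median with empty vector ran from 0.01 to 0.04, and the interaction median from -0.10 to -0.01. The cell type median with Bach2 lay on either side of 0, from -0.05 to 0.03, as libraries were left out. Without the filter on low counts, the vector effect called 736 genes in Tfh cells, 332 in non-Tfh cells, 1255 on average and 37 in the interaction, and 10 and 2 of the 41 genes in Tfh and non-Tfh cells. DESeq2 called 6 of the 41 genes in Tfh and 1 in non-Tfh cells, and 4 genes in the interaction. With only the 4 libraries compared, 1 of the 41 genes was called in Tfh cells. The average effect and the interaction need all 8 libraries and were not fitted that way. Leaving out 1 library at a time gave 21 to 254 genes and 0 to 5 of the 41 for the vector effect in Tfh cells, and 17 to 133 genes and 0 to 2 of the 41 in non-Tfh cells. For the average effect it gave 190 to 764 genes and 2 to 10 of the 41, for the cell type difference with empty vector 1341 to 2698 genes, and for the interaction 0 to 1 genes. The labels do not say that replicate numbers pair the samples. Deviations of same-numbered libraries correlated at 0.240 between the Tfh and non-Tfh groups with Bach2 and 0.208 between those with empty vector. Between Bach2 and empty vector they correlated at 0.0263 in Tfh and 0.129 in non-Tfh cells, and the other pairs of groups gave 0.124 and -0.00413. The highest values were those between Tfh and non-Tfh groups of one vector, and the labels do not say whether such libraries came from the same hosts. These correlations cannot decide this, so pairing was not established. The main fit treats all 8 libraries as independent, and the block is given as an alternative only. With the replicate block the vector effect called 473 genes in Tfh cells, 207 in non-Tfh cells, 975 on average and 3 in the interaction, and 7 and 2 of the 41 genes in Tfh and non-Tfh cells. The cause of these changes in counts was not tested.

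Adding the counts of near-identical copies gave 3 of the 41 genes called in Tfh cells, in place of 2. Under all alternatives run, the cell type calls of Aldoc, Pfkp, Eno1, Hif1a, Slc2a1, Slc2a3 and Idh3a, and the average vector calls of Pgk1 and Aldoa, were never lost. With 2 libraries a group, genes at a few CPM, such as Hk2, Eno3 and Pfkm, have wide errors.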
